A study of Mus musculus with 3 samples.

Results

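Carbonic anhydrases are zinc enzymes that turn carbon dioxide and water into bicarbonate and a proton and back. The genes described here are the 10 carbonic anhydrases Car1, Car2, Car3, Car4, Car7, Car8, Car9, Car11, Car12 and Car14, of 18193 genes that the platform annotation gives a probe set of their own. They were chosen by family name, with Car7 and Car2 known to read high on the mutant arrays, so their values are a description and carry no test. Every probe set whose only gene symbol was one of the 10 was used, which gave 20 probe sets. Some family members work in the cytosol, others sit on the outer face of the cell, and Car8 and Car11 are related proteins that lack the catalytic activity. In the embryo the family is best known for the red cell enzymes Car1 and Car2, which load and unload carbon dioxide in blood.

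Whole mouse embryos at 8.5 dpc were measured on 3 single-channel Affymetrix arrays, each with RNA pooled from litter mates of both sexes. The 2 mutant arrays held 8 and 6 pooled Dnmt3l-/+ embryos, from Dnmt3l-/- mothers mated to wildtype males, in the C57Bl/6J strain background. The 1 normal array held 6 pooled C57Bl/6J embryos, and the genotype of their dam is not given in the labels. Dnmt3l is a cofactor of the DNA methyltransferases that set methylation in the oocyte, so the mutant embryos lack maternal marks while carrying a wildtype paternal allele. Each array is a pool and the normal group is a single pool, so the number of arrays limits the precision of every value.

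The deposited signals of the arrays share one trimmed mean, and median signals were 130, 140 and 144 on mutant array 1, mutant array 2 and the normal array. Ratios below are differences of log2(signal + 31.9), mutant over normal, and understate the change of dim probe sets. The standard error (SE) of such a ratio comes from limma, whose 1 residual degree of freedom is the difference between the mutant arrays. A filter on dim probe sets kept 27022 of 45037, among them 13 of the 20 carbonic anhydrase probe sets, and Car1 was the gene with none kept. The Dnmt3l deletion was not checked with these probe sets. Brightness served to filter probe sets and to choose a probe set for each gene, and it enters the summed signals below. It is not read as a difference in RNA amount between genes, because probe sets bind with different strength.

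RefSeq promoter windows in build GRCm38.p6 were matched for 6 of the 10 genes, and no window was matched for Car1, Car2, Car3 and Car8. The windows of Car7 and Car4 are shown because these 2 genes had the highest log2 ratios among the genes with a window, and their CpG sites, where methylation could be set, are in capitals. Each covers the 250 bases before a transcript start, written along the gene's own strand. Car7 has 3 annotated starts, at chr8:104534450-104534699, chr8:104540557-104540806 and chr8:104541059-104541308, all on the plus strand, and the Car4 window is chr11:84957504-84957753, plus strand.
Car7 start 1: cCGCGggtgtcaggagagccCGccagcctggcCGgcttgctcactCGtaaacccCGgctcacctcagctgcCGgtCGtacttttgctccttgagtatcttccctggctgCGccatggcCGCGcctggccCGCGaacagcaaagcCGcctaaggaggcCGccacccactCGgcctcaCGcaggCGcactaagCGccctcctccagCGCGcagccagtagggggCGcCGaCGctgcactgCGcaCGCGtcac
Car7 start 2: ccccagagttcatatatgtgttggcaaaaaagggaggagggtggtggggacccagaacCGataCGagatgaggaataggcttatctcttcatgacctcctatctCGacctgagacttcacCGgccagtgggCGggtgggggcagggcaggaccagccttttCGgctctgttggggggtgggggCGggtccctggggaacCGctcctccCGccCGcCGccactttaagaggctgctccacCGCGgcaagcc
Car7 start 3: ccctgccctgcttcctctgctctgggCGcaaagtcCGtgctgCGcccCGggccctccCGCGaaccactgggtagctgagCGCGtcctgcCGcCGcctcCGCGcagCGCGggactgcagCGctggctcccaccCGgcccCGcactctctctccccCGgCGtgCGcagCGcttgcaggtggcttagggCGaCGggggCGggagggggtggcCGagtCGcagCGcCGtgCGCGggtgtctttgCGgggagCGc
Car4: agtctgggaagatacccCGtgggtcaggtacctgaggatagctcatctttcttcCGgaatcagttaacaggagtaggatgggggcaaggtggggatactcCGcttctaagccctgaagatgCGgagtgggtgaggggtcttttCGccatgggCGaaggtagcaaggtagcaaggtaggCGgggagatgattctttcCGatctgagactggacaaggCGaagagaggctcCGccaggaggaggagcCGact
The Car7 windows held 27, 13 and 32 CpG sites, and the Car4 window held 11. Over all 32851 windows of this length the median was 6 and the 90th percentile was 25, so the outer Car7 windows were among the most CpG-rich. The Car14 window held 10 those of Car12 and Car9 held 6 and 5, and the pair of Car11 windows held 9 and 4. Methylation was not measured here, and which Car7 start each probe set reads is not given in the sources used here. The GATA motif AGATAA, searched on both strands, occurred in 1 of the 9 windows of these genes, that of Car7 start 2, on the minus strand at position -170 from the start. Of all windows, 9.99% hold it.

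Of the 13 kept carbonic anhydrase probe sets, 4 were at least 2-fold higher in both mutant arrays, against 2.57% of all kept probe sets. These were the 3 probe sets of Car7 and the 1 probe set of Car2, and no kept probe set of another member passed. Both genes were known to read high when the family was chosen, so the share says nothing about the family as a whole. None was at least 2-fold lower in both, against 1.90% of all kept probe sets. The normal array lay below both mutant arrays for 10 of the 13 (32.2% of all kept) and above both for 3 (42.5% of all kept). The median log2 ratio over the 13 was 0.44, with a range from -0.90 to 4.09, beside a median of -0.07 over all kept probe sets. Car7 alone supplies 3 of the 13, so these counts are not counts of independent genes.

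**Figure D1:**
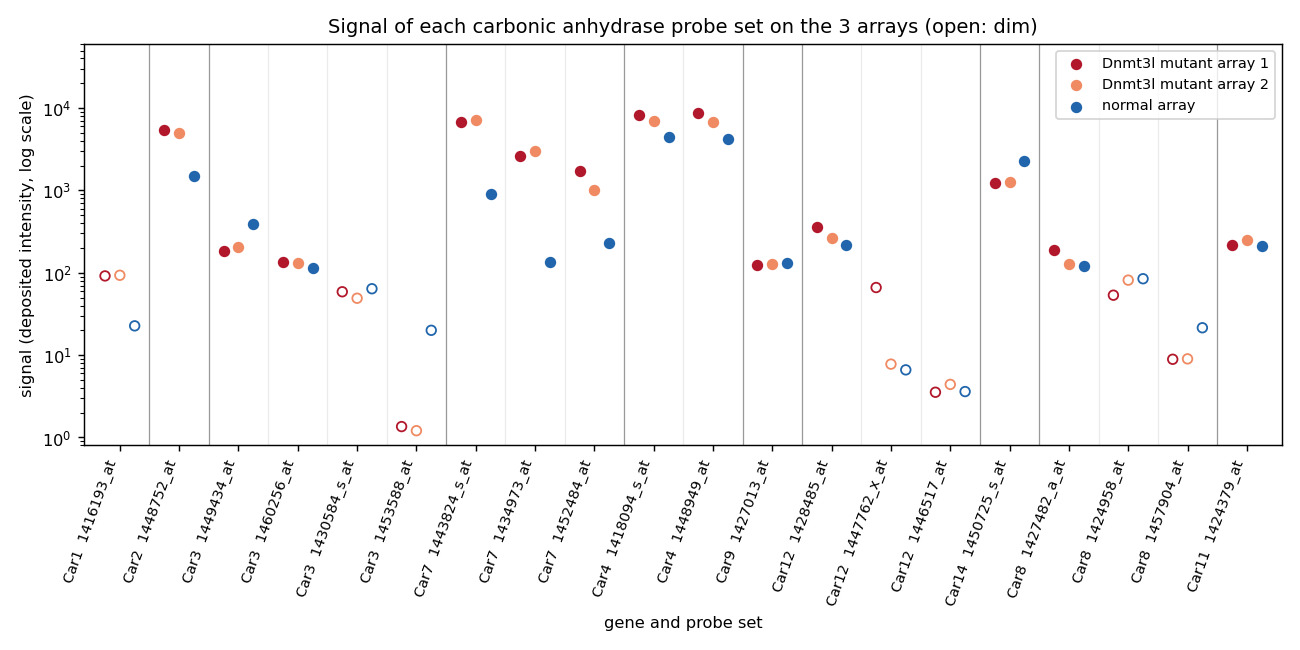
Signal of each of the 20 carbonic anhydrase probe sets on the 3 arrays, on a log scale, with 1 point per array (mutant arrays 1 and 2, then the normal array) and open points for dim probe sets. All 3 Car7 probe sets and Car2 have the normal point well below both mutant points, while Car14 and the first Car3 probe set have it above.

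Among the cytosolic enzymes, Car7 differed most. Car7 is known mainly from brain and muscle. Probe set 1434973_at read 2616 and 3001 on the mutant arrays against 135 on the normal array, a log2 ratio of 4.09 (SE 0.23). Both mutant arrays were far above the normal one and close to each other. By the smaller of its 2 mutant ratios (3.99), this probe set had rank 1 of the 27022 kept. By the same measure the Car7 probe sets 1443824_s_at and 1452484_at had ranks 42 and 159. Car7 was known to read high when the family was chosen, so these ranks are a description only.

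The other Car7 probe sets ran the same way at smaller size. Probe set 1443824_s_at read 6842 and 7082 on the mutant arrays against 907 on the normal array, a log2 ratio of 2.90 (SE 0.18). Probe set 1452484_at read 1723 and 1002 on the mutant arrays against 231 on the normal array, a log2 ratio of 2.36 (SE 0.37). The mutant arrays differed most at this last probe set, by 0.76 on the log2 scale, and still did not overlap the normal array. The size of the Car7 difference thus depended on the probe set, from 5.89-fold to 20.8-fold in mean signal, and its direction did not.

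Car2, the fast red cell enzyme that is also used by bone-resorbing and kidney cells, had 1 probe set. It read 5410 and 5021 on the mutant arrays against 1512 on the normal array, a log2 ratio of 1.76 (SE 0.18). The mutant arrays lay within 0.11 of each other on the log2 scale, and mean mutant signal was 3.45-fold that of the normal array.

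Car1, the other red cell enzyme, was dim. Its probe set read 91.6 and 93.3 on the mutant arrays against 22.7 on the normal array, where it lay below that array's 20th percentile of 31.9. The log2 ratio of 1.19 therefore rests on a normal value near background and moved between 0.85 and 1.49 over the pseudocounts tried.

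Car3, an enzyme of low activity that marks skeletal muscle and, in the early mouse embryo, the notochord, had 4 probe sets that disagreed. The brightest, 1449434_at, read 182 and 206 on the mutant arrays against 390 on the normal array, a log2 ratio of -0.90 (SE 0.29). The other kept probe set, 1460256_at, read 134 and 132 on the mutant arrays against 114 on the normal array, a log2 ratio of 0.18 (SE 0.33). The signs differ, so no single direction can be given for Car3. Of the dim pair, 1430584_s_at gave -0.16 and 1453588_at gave -0.65, the last with signals below the 20th percentile on every array.

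Car4, which a lipid anchor holds on the outer face of the cell, was next highest after Car2 among kept genes. Its probe set 1418094_s_at read 8129 and 7001 on the mutant arrays against 4408 on the normal array, a log2 ratio of 0.77 (SE 0.17). Probe set 1448949_at read 8603 and 6822 on the mutant arrays against 4261 on the normal array, a log2 ratio of 0.84 (SE 0.20). The 2 probe sets gave nearly the same ratio, and mutant array 1 was the higher mutant in both. Only mutant array 1 at 1448949_at reached 2-fold (1.01 on the log2 scale), so Car4 is just outside the 2-fold count.

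The transmembrane enzymes did not move together. Car14, found in adult brain, kidney and liver, read 1217 and 1250 on the mutant arrays against 2307 on the normal array, a log2 ratio of -0.89 (SE 0.21). The mutant arrays were within 0.04 of each other on the log2 scale and mean mutant signal was 0.534-fold that of the normal array. Car12, known from kidney and colon epithelium, read 360 and 261 on the mutant arrays against 218 on the normal array at its kept probe set, a log2 ratio of 0.44 (SE 0.32). The mutant arrays differed from each other there by 0.42, about as much as their mean differed from the normal array. Of the dim Car12 probe sets, 1447762_x_at read 66.2 and 7.78 on the mutant arrays against 6.62 on the normal array, so that only mutant array 1 stood out, and 1446517_at was below the 20th percentile on every array.

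Car9, the family member that low oxygen induces through the HIF transcription factors, was level. It read 126 and 128 on the mutant arrays against 133 on the normal array, a log2 ratio of -0.05 (SE 0.33), and the sign turned positive (0.01 to 0.04) under quantile normalization, median centring and cyclic loess. In its promoter window the core of the hypoxia response element, ACGTG on the minus strand, begins 18 bases before the start and is in capitals in this stretch of chr4:43506996-43507025, plus strand.
Car9: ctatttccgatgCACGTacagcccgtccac
That core, searched on both strands, was in 16.6% of all windows, and among the genes described here also in the Car14 window.

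The catalytically inactive relatives were near level. Car8, a binding partner of the inositol trisphosphate receptor in Purkinje cells, read 189 and 130 on the mutant arrays against 120 on the normal array at its kept probe set, a log2 ratio of 0.31 (SE 0.36). Its dim probe sets gave -0.24 and -0.39, so the mean over the Car8 probe sets was -0.11. Car11 read 216 and 249 on the mutant arrays against 211 on the normal array, a log2 ratio of 0.12 (SE 0.30). For both genes the ratio was smaller than its SE.

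**Figure D2:**
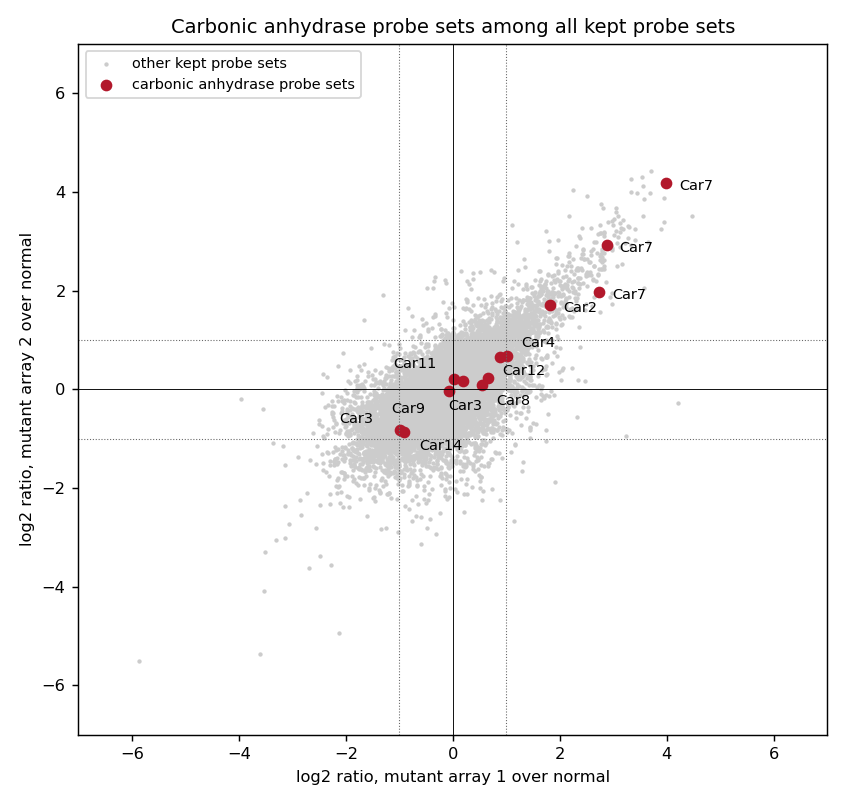
Log2 ratio over the normal array for mutant array 1 (horizontal) and mutant array 2 (vertical), with 1 point per kept probe set, the 13 carbonic anhydrase probe sets in red and dotted lines at 2-fold. The Car7 probe sets (2.36 to 4.09) and Car2 (1.76) lie in the upper right corner, Car4 near the 2-fold lines, and Car14 and the brightest Car3 probe set at the lower left.

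Agreement between the mutant arrays varied among these genes. The absolute difference between the mutant arrays had a median of 0.24 on the log2 scale over all kept probe sets and a 95th percentile of 0.97. All 13 kept carbonic anhydrase probe sets were under that 95th percentile, as 95% of all kept probe sets are by definition, so this does not set them apart. The widest was the Car7 probe set 1452484_at (0.76). Both ratios contain the same normal array, so a deviation of that 1 pool would move all of them together.

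The genes nearest in pattern were found by the distance between their pairs of mutant ratios and those of the 4 probe sets past 2-fold, over 2 ratios that share the normal array. Nearest to the Car7 probe set 1434973_at were Hebp1 (distance 0.32), S100g (0.37) and Apob (0.43), which code for a heme-binding protein, a calcium-binding protein and a lipoprotein. Slco4c1 (0.11), Hook2 (0.14) and 2610528J11Rik (0.15) were nearest to 1443824_s_at. Hook2 read 23.8 on the normal array, below that array's 20th percentile of 31.9, so its ratio depends on the pseudocount. Tex19.1 (0.23), Tmem37 (0.23) and the trypsin inhibitor gene Spink1 (0.26) were nearest to 1452484_at. Car2 had Tmem150a (0.02), the placental gene Plac1 (0.03) and the thyroid hormone carrier gene Ttr (0.04) as its nearest genes.

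Markers of other tissues moved in the same arrays as Car7 and Car2. The gene lists here and below were chosen with earlier results of these data known, so counts from them are a description only. Over all kept probe sets, limma called 0.548% higher and 0.0296% lower in the mutants. At an unadjusted p under 0.05, limma gave 8.01% of all genes higher and 4.24% lower, the shares against which such counts below are to be read. Every adjusted call, those named below included, was lost without the filter on dim probe sets or without the variance trend. All 13 kept yolk sac endoderm markers of 14 listed were higher in both mutant arrays, with summed signals of 110207 and 117295 on the mutant arrays against 20264 on the normal array. Apob (log2 ratio 3.85), Apoa4 (3.79) and Fgb (3.29) were the 3 with the largest smaller ratio, and limma called 12 of the 13 higher (Benjamini-Hochberg adjusted p at or under 0.05), against 0.728% of all genes. All 12 kept red cell markers of 16 listed were higher in both mutant arrays, with a median log2 ratio of 1.59. Their sums, mostly signal of the globin genes Hba-x, Hbb-y and Hbb-bh1, were 71500 and 71681 on the mutant arrays against 34960 on the normal array. Limma called Hba-x (log2 ratio 1.37, SE 0.13, adjusted p = 0.0269) and Slc4a1 higher, while Hemgn (2.21) and Alas2 (2.14) did not pass. At an unadjusted limma p under 0.05, 11 of the 12 were higher. No kept marker of either list was at 0, the lowest signals being 118 and 86.2. The part of these tissues in the Car7 and Car2 values was not tested. In pooled embryos, more cells of a type and more RNA per cell cannot be told apart.

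Of the other tissue lists, trophoblast had a median log2 ratio near that of the red cell list (1.59), and the rest had smaller or negative medians. The 4 kept trophoblast markers of 7 had a median log2 ratio of 1.55, with 3 higher at an unadjusted limma p under 0.05. Of the 4, limma called Esx1 (2.25, SE 0.28, adjusted p = 0.0498) higher. The 6 endothelial markers had a median of 0.49 with none called and 3 higher at that unadjusted p. Beside Car3, the 5 kept somite markers of 6 had a median of -0.85 and summed to 1601 and 2661 on the mutant arrays against 3843 on the normal array. The 3 kept notochord markers of 7 summed to 1424 and 2048 on the mutant arrays against 1956 on the normal array. Their median was -0.28, with 1 lower in both mutant arrays (Shh, -0.54), 1 higher in both (Foxa2, 0.35) and 1 mixed. Beside Car14, the 5 kept neural markers of 6 had a median of -0.82 and the 6 cardiac markers one of -0.90. Limma called none of the somite, notochord, neural and cardiac markers, against 0.728% of all genes higher and 0.0310% lower. At an unadjusted p under 0.05 limma gave 2, 0, 3 and 4 of these markers as lower. The neural marker Elavl3 ran the other way, at 1.01 (SE 0.34), higher in both mutant arrays and the 1 marker of these lists higher at that unadjusted p. Of 6 decidua markers limma called Prl8a2 lower (-3.41, SE 0.30, adjusted p = 0.0212), against 0.0310% of all genes, while Pgr (-0.62) and Lum did not pass. Lum had 1.57 (SE 0.67) and rested largely on mutant array 2, with ratios of 0.71 and 2.43 in mutant arrays 1 and 2. The part of any of these tissues in the Car3 and Car14 values was not tested.

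**Figure D3:**
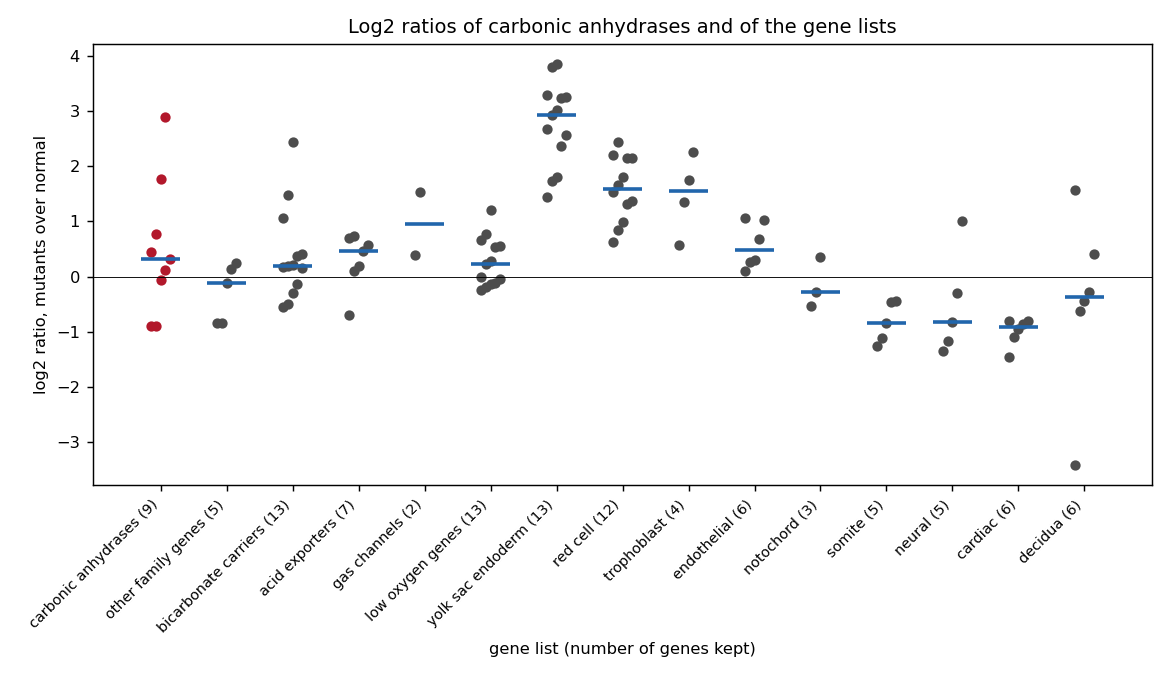
Log2 ratio of mutants over normal for each kept gene, with 1 point per gene by its brightest kept probe set, in the carbonic anhydrases (red) and 14 gene lists, and a blue bar at each median. The carbonic anhydrases spread from -0.90 to 2.90, while all 13 yolk sac endoderm genes and all 12 red cell genes are above 0.

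The remaining relatives of the family showed no called change. Car13, a cytosolic enzyme, had a log2 ratio of 0.24 (SE 0.30) at its brightest probe set, while its other probe sets gave -0.08 and, dim, -0.26. The inactive Car10 had -0.11 (SE 0.29), and its dim probe set gave 0.31. Car15, a membrane-anchored enzyme, read 69.2 and 133 on the mutant arrays against 200 on the normal array, a log2 ratio of -0.85 (SE 0.42). The receptor phosphatase genes Ptprz1 and Ptprg, whose proteins carry a carbonic anhydrase-like domain outside the cell, had -0.85 (SE 0.34) and 0.15 (SE 0.24) at their brightest probe sets. The other probe sets of Ptprg ran the opposite way, with -0.28, -0.79 and -0.99, and those of Ptprz1 gave -0.18 and -0.02. By brightest probe set, limma called none of these 5 kept genes of 8, and none had an unadjusted p under 0.05. Over all genes limma called 0.728% higher and 0.0310% lower, so no call among these 5 is near those shares. The mitochondrial enzymes Car5a and Car5b and the secreted Car6 had no probe set above the filter, with signals no higher than 37.6, 44.9 and 76.5 on any array.

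Bicarbonate carriers pass the product of the reaction across membranes. Of 22 listed genes, the SLC4 and SLC26 carriers and Cftr, 13 were kept and limma called 1 higher and none lower, against 0.728% and 0.0310% of all genes. It was Slc4a1, the red cell anion exchanger, which is also on the red cell list. Slc4a1 read 1506 and 2208 on the mutant arrays against 313 on the normal array, a log2 ratio of 2.43 (SE 0.30, adjusted p = 0.0498). This call was lost with a doubled pseudocount, quantile normalization, cyclic loess, no filter or no variance trend. Slc26a6, an anion exchanger of epithelia, had 1.48 (SE 0.30, adjusted p = 0.142) and the sulfate carrier Slc26a2 had 1.06 (SE 0.27, adjusted p = 0.205) by limma.

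The proteins that export acid or pass gases gave no call. Of 14 proton exchangers, monocarboxylate carriers and their scaffold, 7 were kept and limma called none, with 2 higher at an unadjusted p under 0.05. The scaffold gene Slc9a3r1 had a log2 ratio of 0.74 (SE 0.15), the lactate carrier Slc16a1 had 0.70 (SE 0.17) and the exchanger Slc9a3 had 0.58 (SE 0.33). Of 5 gas channel genes only Rhag and Rhd were kept, and limma called neither, with Rhag under an unadjusted p of 0.05. Over all genes limma called 0.728% higher and 0.0310% lower, so no call in either list is near those shares. Rhag, a red cell Rh protein, read 319 and 458 on the mutant arrays against 111 on the normal array, a log2 ratio of 1.54 (SE 0.34), and Rhd had 0.38 (SE 0.36).

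Genes that low oxygen induces were set beside Car9 and Car12. All 13 were kept, with a median log2 ratio of 0.23, and limma called none, with 4 higher and 0 lower at an unadjusted p under 0.05. Over all genes limma called 0.728% higher and 0.0310% lower, so no call among the 13 is near those shares. The stress gene Ndrg1 read 938 and 819 on the mutant arrays against 363 on the normal array, a log2 ratio of 1.20 (SE 0.25). The angiogenic factor Vegfa had 0.77 (SE 0.23) and Ankrd37 had 0.67 (SE 0.25). Of the 13, 7 were higher in both mutant arrays, 3 were lower in both and 3 were mixed. Summed signals of the 13, which the brightest probe sets dominate, were 84580 and 85228 on the mutant arrays against 87527 on the normal array.

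The log2 ratios of Car7 and Car2 were larger than those of the kept genes next to them on the chromosome. Both were known to read high when the family was chosen, so this difference says nothing about the locus. In the gene table of assembly GRCm38.p6, Car13, Car1, Car3 and Car2 follow each other in that order on chromosome 3, with no other protein-coding gene between them. Along that row the log2 ratios were 0.24 for the brightest Car13 probe set, 1.19 for the dim Car1, -0.90 and 0.18 for the kept Car3 probe sets and 1.76 for Car2. Since the probe sets of Car13 and of Car3 disagree in sign, no pattern of signs along the row can be given. The measured genes flanking Car7 on either side, Nae1 and Pdp2, had 0.10 and -0.01. Over the 3 nearest measured genes on each side of Car7, Car2, Car4 and Car14, the 17 kept genes other than members ranged from -1.31 (Plekho1, near Car14) to 0.79 (Myo19, near Car4). These neighbours were picked by position after the values of the family were known, and no test was run on them as a set.

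**Figure D4:**
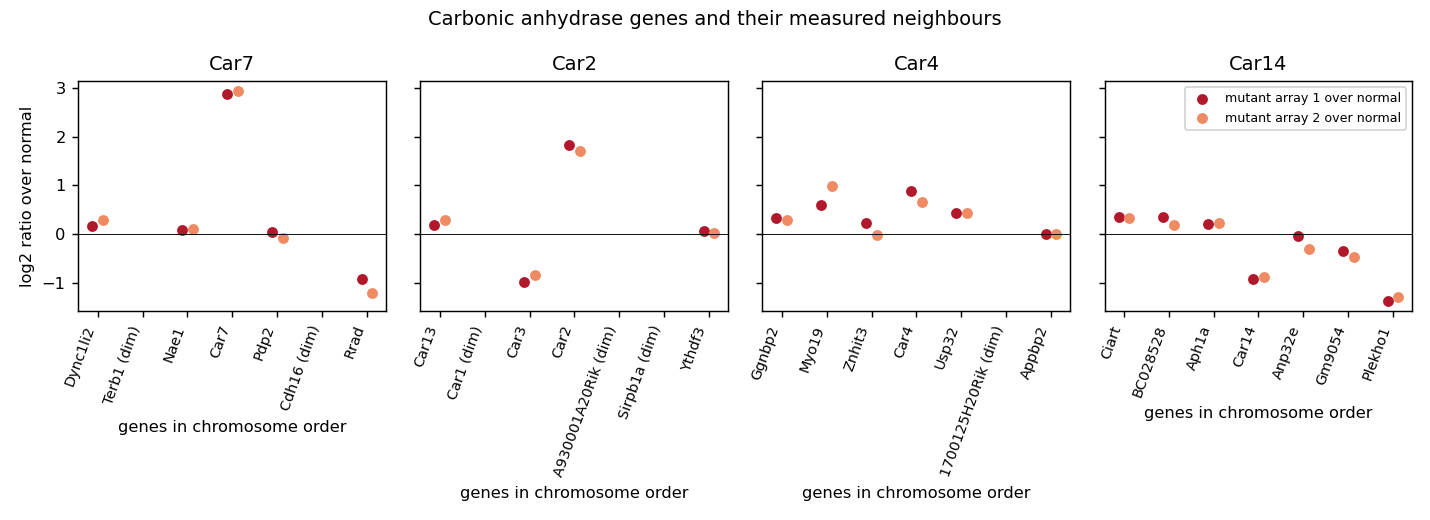
Log2 ratio over the normal array in mutant array 1 and mutant array 2 for Car7, Car2, Car4 and Car14 (brightest probe set) and the 3 nearest measured genes on each side, in chromosome order, with dim genes named without points. Car7 (2.90) and Car2 (1.76) stand above their kept neighbours, whereas Car4 (0.77) is close to Myo19 (0.79) and Car14 (-0.89) has a lower neighbour in Plekho1 (-1.31).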

How the data were processed

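RNA from 3 pools of whole embryos was hybridised to Affymetrix arrays. The deposited values are linear signal intensity, 1 per probe set and array, with GCOS and MAS5 named, per the submitters' processing notes, but no versions. From the values, the authors' arrays share a mean of 500.0 after trimming 2% at each end, so each was scaled as a whole. Under such scaling, gain of one tissue could lower the values of others, which was not tested.

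Of 45101 probe sets, 64 Affymetrix controls were dropped, and gene names are those of the platform annotation. As pseudocount, 31.9 was added (the arrays' median 20th percentile), and probe sets at or above the 40th percentile of mean log2 signal were kept. Limma (version 3.58.1, R 4.3.3) was fitted to all kept probe sets with a variance trend and 4.52 prior degrees of freedom, two-sided, with Benjamini-Hochberg adjustment and a threshold of 0.05. The lone normal array is assumed to vary like the mutants. The labels call the mutant arrays biological replicates. Scripts were tested on simulated data. Genes outside the family follow a written rule (called by limma, or up to 3 per list by the smaller mutant ratio), each by its brightest kept probe set. The members and lists were chosen with earlier results of these data known. Alternatives were the pseudocount, filter, normalization, variance trend, fold threshold, probe set rule and each mutant array left out. Promoter windows came from RefSeq (GRCm38.p6).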

Additional observations from a re-analysis of the deposited data

How the results depend on the processing

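The count of carbonic anhydrase probe sets at least 2-fold higher in both mutant arrays was 4 or 5 under every other alternative run, and 6 where 1.5-fold was enough. With 1 mutant array left out, which can only keep or raise counts that ask for both arrays and so says nothing of their stability, it was 4 or 5, and the count at least 2-fold lower was 0. Lowering the threshold to 1.5-fold made that second count 2 (Car14 and the brightest Car3 probe set). Limma's calls over all probe sets were less stable. Median centring gave 263 higher and 24 lower, against 148 and 8 in the fit reported. Without the filter limma called 0 and 0, with 2423 higher and 2451 lower at an unadjusted p under 0.05, and without the variance trend 0 and 0, with 1641 and 1814. The single pathway call (Slc4a1) became 0 by limma with a doubled pseudocount, no filter, quantile normalization, cyclic loess or no variance trend. Of 55 log2 ratios of the 10 genes under another pseudocount, scaling or probe set rule, 40 moved by less than the SD between the mutant arrays and 15 by more, and 4 changed sign, for Car9 under the 3 other scalings and Car8 with the mean of its probe sets. No limma fit was possible with 1 mutant array left out, since no residual degree of freedom is then left. No paired analysis was possible because the labels number only the mutant arrays. The normal group had 1 array, so its own spread was not measured.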
